A study of Mus musculus with 8 samples.

Results

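The genes that write and read methylation of histone H4 at lysine 20 (H4K20) and of histone H3 at lysine 9 (H3K9) were examined in MOC1 tumours treated with an antisense oligonucleotide (ASO) against Smyd3 or with a control ASO. The set was fixed by symbol and holds 10 genes of the 55450 in the table, namely Kmt5a, Kmt5b, Kmt5c, Suv39h1, Suv39h2, Ehmt1, Ehmt2, Cbx1, Cbx3 and Cbx5. Each symbol matched 1 row, and all 10 genes passed the filter on low counts, with 126 to 5181 expected counts per tumour. MOC1 cells come from a squamous carcinoma of the mouse oral cavity, and the tumours grew in the flank of C57BL/6 mice that all received anti-PD-1, an antibody against a checkpoint receptor of T cells, over 32 days. An ASO pairs with its target RNA and lowers it. The Smyd3 ASO arm holds 5 tumours, of which 2 are labelled responders (numbered 1 and 3), 2 non-responders (called 1 and 2 in the order listed) and 1 has no response mark, and the control ASO arm holds 3. Response was an outcome within the Smyd3 ASO arm and was not assigned, all tumours come from 1 cell line, and no tumour without anti-PD-1 was analysed here. The labels number the tumours but do not state that each came from a separate animal, so the p-values measure the spread between these samples.

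H4K20 carries 1, 2 or 3 methyl groups, and different enzymes add the first and the later ones. Kmt5a (also called Set8) adds the first, a mark tied to the cell cycle and to chromosome compaction. Kmt5b and Kmt5c build on it to the higher states, which have roles in DNA repair and in constitutive heterochromatin. At H3K9, Suv39h1 and Suv39h2 write the trimethylated mark of pericentromeric heterochromatin, and Ehmt1 (GLP) and Ehmt2 (G9a) act as a complex that writes the lower states in gene-rich chromatin. Cbx5, Cbx1 and Cbx3 encode the heterochromatin proteins HP1 alpha, beta and gamma, which bind methylated H3K9 through a chromodomain and recruit further silencing enzymes, Kmt5b and Kmt5c among them. Smyd3 is itself a lysine methyltransferase. Transcripts were measured here, and neither the proteins nor the histone marks.

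The libraries held between 22103853 and 27258700 expected counts, and Suv39h2 had 126 to 322 of them per tumour, while every other member had 805 or more, so Suv39h2 was the least precisely measured. The 12 basal keratinocyte markers, which define the squamous carcinoma cell, were present in every group, with a summed level of 20647 to 37960 CPM (counts scaled to a common library size) in Smyd3 ASO tumours and 29952 to 40169 CPM in control ASO tumours. The bulk tissue also holds host cells, and fewer cells of a type cannot be told apart from less RNA per cell. The summed level of 15 skeletal muscle markers did not overlap between the arms, at 728 to 12795 CPM in Smyd3 ASO tumours and 44.6 to 114 CPM in control ASO tumours. That of 8 fibroblast markers did not overlap either, at 4404 to 6076 CPM against 6661 to 11828 CPM. Of these 8 markers, 5 had a log2 fold change below 0 and 3 above. Of the 8, 4 were lower without overlap, where 5.14% of all genes were. The mean log2 CPM of the 8 fibroblast markers overlapped, at 7.07 to 8.09 in Smyd3 ASO tumours and 7.49 to 8.50 in control ASO tumours. No marker of these 3 lists was at 0 in either arm. Smyd3 stood at 8.68, 4.38, 4.58, 9.26 and 4.88 CPM in responder 1, responder 3, the tumour without a mark, non-responder 1 and non-responder 2, against 10.7, 11.9 and 10.6 CPM in controls 1, 2 and 3. The arms did not overlap (exact permutation test on log2 CPM, two-sided p = 0.0357, where the smallest p of the 56 splits is 0.0179), a p that was 0.0571 to 0.143 with any 1 library left out, and Smyd3 missed the threshold in the fit over all genes (edgeR quasi-likelihood test, log2 fold change −0.80, SE 0.29, FDR 0.246).

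The stretches just upstream of 4 genes are shown because they belong to the relations described further on. By Pearson r, Suv39h1 and Ehmt2 passed the test of a relation with a cell cycle score across the tumours. Suv39h2, the paralog of Suv39h1, missed the threshold after adjustment. By Spearman rho Suv39h1, Ehmt2 and Suv39h2 all missed it after adjustment. Cbx5 passed the test of a relation with a neighbouring gene. The stretches come from the RefSeq promoter table for GRCm38.p6 and were cut to bases that lie before the RefSeq start and outside every exon of GENCODE M21. They run 5′ to 3′ on the strand of the gene, and capitals mark matches, on either strand, to CCAAT, to the NRF1 motif (GCGCA, any base, GCGC), to the CHR element TTTGAA or to 1 of the 4 E2F spellings TTTCCCGC, TTTCGCGC, TTTGCCGC and TTTGGCGC. Suv39h1 is on chromosome X at 8074761 to 8075010 (minus strand), Suv39h2 on chromosome 2 at 3475032 to 3475236 (minus strand), Ehmt2 on chromosome 17 at 34898266 to 34898468 (plus strand, the whole gap between Ehmt2 and its neighbour C2), and Cbx5 on chromosome 15 at 103239853 to 103240102 (minus strand).
Suv39h1: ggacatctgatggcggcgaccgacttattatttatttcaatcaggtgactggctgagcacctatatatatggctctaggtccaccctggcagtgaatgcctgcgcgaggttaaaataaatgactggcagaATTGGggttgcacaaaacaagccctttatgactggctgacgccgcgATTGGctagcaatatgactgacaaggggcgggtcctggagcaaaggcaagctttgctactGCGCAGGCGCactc
Suv39h2: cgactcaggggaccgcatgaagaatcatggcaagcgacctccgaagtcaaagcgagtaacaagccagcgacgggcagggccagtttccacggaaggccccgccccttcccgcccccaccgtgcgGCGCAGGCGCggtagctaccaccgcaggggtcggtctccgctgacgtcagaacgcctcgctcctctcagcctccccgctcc
Ehmt2: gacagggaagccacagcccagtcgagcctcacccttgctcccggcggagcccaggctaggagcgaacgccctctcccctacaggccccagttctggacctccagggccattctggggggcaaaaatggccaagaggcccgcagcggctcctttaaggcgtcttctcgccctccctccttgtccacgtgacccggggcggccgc
Cbx5: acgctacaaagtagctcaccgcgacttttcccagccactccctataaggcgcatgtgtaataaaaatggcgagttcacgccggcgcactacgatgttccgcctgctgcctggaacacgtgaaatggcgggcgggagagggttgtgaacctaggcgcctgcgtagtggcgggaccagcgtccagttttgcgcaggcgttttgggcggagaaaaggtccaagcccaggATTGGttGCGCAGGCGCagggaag
The Suv39h1 stretch held 2 CCAAT matches and 1 NRF1 match, the Cbx5 stretch 1 of each, the Suv39h2 stretch 1 NRF1 match and the Ehmt2 stretch none of the 4 motifs. Over all 32851 promoter windows of the table, each of 300 bases, CCAAT matched in 37.4%, NRF1 in 4.6%, CHR in 17.9% and E2F in 2.26%. Among the full windows of the 10 genes, CCAAT matched in at least 1 window of Kmt5a, Kmt5c, Suv39h1 and Cbx5, NRF1 matched in at least 1 window of Suv39h1, Suv39h2, Ehmt1 and Cbx5, E2F in 1 window each of Kmt5c, Suv39h1 and Cbx3, and CHR in that of Suv39h2. A match describes the letters and shows no binding.

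Transcript levels of the 10 genes were compared with each other per length, as CPM per kilobase of merged GENCODE M21 exons. In this order Cbx3 (31.3 ± 1.42, SD over 8 tumours) and Ehmt2 (30.8 ± 3.37) came first, followed by Kmt5a (24.7 ± 3.99), Cbx1 (19.6 ± 1.08) and Cbx5 (17.7 ± 2.66). Ehmt1 (10.9 ± 1.43), Kmt5c (10.3 ± 0.882) and Suv39h1 (8.64 ± 1.25) formed a middle group, and Kmt5b (3.38 ± 0.349) and Suv39h2 (2.34 ± 0.689) were lowest. Neighbours in this order overlapped in their ranges over the tumours except at 2 steps, between Cbx5 and Ehmt1 and between Suv39h1 and Kmt5b. The merged length counts every annotated exon, which is 14752 bases for Kmt5b, so the level of a gene with long alternative exons is understated. The make-up of the 3 HP1 genes overlapped between the arms. Cbx3 made up 41.8% to 48.0% of their summed per-length level in Smyd3 ASO tumours and 42.7% to 50.5% in control ASO tumours, Cbx5 22.2% to 29.0% against 22.7% to 28.9%, and Cbx1 26.8% to 29.7% against 26.8% to 29.5%.

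The first comparison, Smyd3 ASO against control ASO, asked whether transcripts of the machinery differed between the arms. None of the 10 genes passed the threshold, and all 10 overlapped between the arms. The fitted fold of 9 of the 10 had a 95% interval that lay within 1.5-fold in either direction, and Suv39h2, the gene with the fewest counts, was the exception. In the edgeR quasi-likelihood test 0 of 10 reached an FDR of 0.05, with FDR from 0.520 to 0.998, 0 of 10 had an unadjusted p below 0.05, and DESeq2 and limma voom called 0 as well. Over all 16911 genes tested edgeR called 0.0% at this FDR, while DESeq2 called 1053 genes and limma voom 0. By edgeR 15.6% had an unadjusted p below 0.05, and 10.6% did not overlap between the arms (5.45% higher and 5.14% lower in Smyd3 ASO tumours). The log2 fold changes of the 10 genes ran from −0.18 to 0.41, 6 above 0 and 4 below, with a median of 0.0082 beside 0.013 over all genes.

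**Figure D1:**
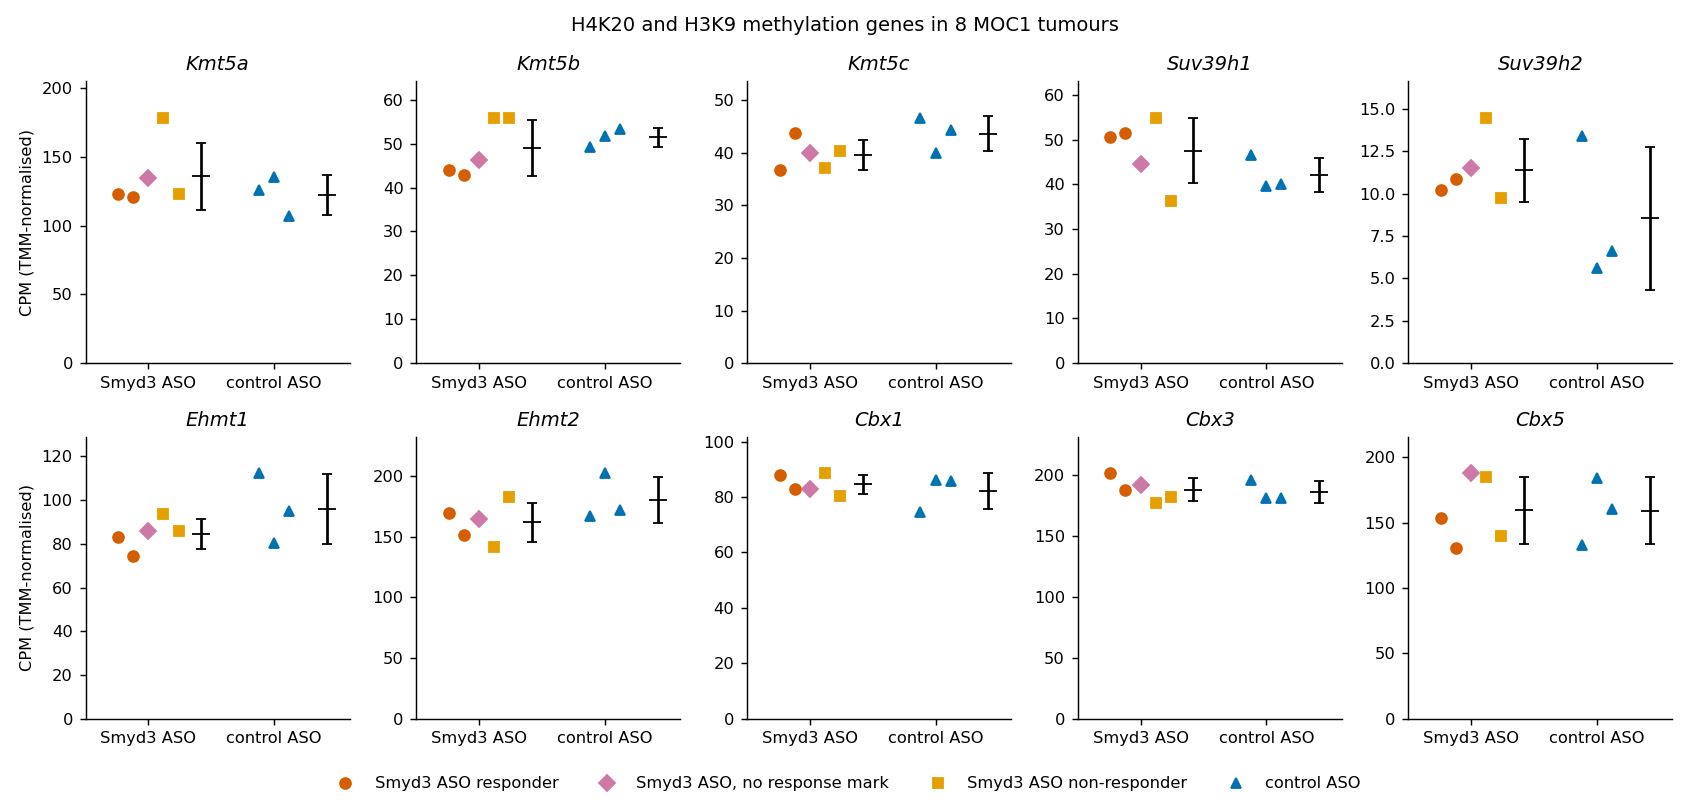
TMM-normalised CPM of the 10 genes, 1 panel per gene with its own axis from 0; points are tumours (Smyd3 ASO left, control ASO right), and bars beside them give the mean and SD of each arm (n = 5 and n = 3). Points of the arms overlap in every panel; non-responder 1 is highest in Kmt5a at 178 CPM, and control 1 is apart from controls 2 and 3 in Suv39h2.

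The H4K20 enzymes came first. Kmt5a, on mm10 chromosome 5 at 124439930 to 124462308 (plus strand), stood at 123, 121, 135, 178 and 123 CPM in responder 1, responder 3, the tumour without a mark, non-responder 1 and non-responder 2, against 126, 135 and 107 CPM in controls 1, 2 and 3. Non-responder 1 lay above every other tumour, while the other 4 Smyd3 ASO tumours lay within the range of the controls. The log2 fold change was 0.15 (95% interval −0.19 to 0.49) and was 0.032 without non-responder 1. Kmt5c (chromosome 7, 4740115 to 4747514, plus strand) had 36.7, 43.7, 40.1, 37.1 and 40.3 CPM in the Smyd3 ASO tumours in the same order, against 46.7, 40.0 and 44.4 CPM in the controls. The arms overlapped, with the 2 lowest values in responder 1 and non-responder 1, and the log2 fold change was −0.14 (interval −0.36 to 0.07).

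Kmt5b (chromosome 19, 3767421 to 3818303, plus strand) lay on opposite sides of the controls in responders and non-responders. It stood at 43.9 and 42.8 CPM in responders 1 and 3, at 46.3 CPM in the tumour without a mark and at 55.9 and 55.8 CPM in non-responders 1 and 2, against 49.1, 51.8 and 53.3 CPM in controls 1, 2 and 3. Both responders and the unmarked tumour lay below every control and both non-responders above every control. Averaged over the arm this left 48.9 ± 6.42 CPM (SD, n = 5) in Smyd3 ASO tumours and 51.4 ± 2.13 CPM (SD, n = 3) in control ASO tumours, with a log2 fold change of −0.07 (interval −0.34 to 0.19).

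The H3K9 trimethylases were next. Suv39h1 (chromosome X, 8061171 to 8074760, minus strand) stood at 50.5, 51.6, 44.5, 54.9 and 36.2 CPM in responder 1, responder 3, the tumour without a mark, non-responder 1 and non-responder 2, against 46.5, 39.7 and 40.1 CPM in controls 1, 2 and 3. The highest and the lowest of the 8 values were those of the 2 non-responders. Its log2 fold change was 0.18 (interval −0.14 to 0.50). Suv39h2 (chromosome 2, 3455815 to 3475031, minus strand) had 10.2, 10.9, 11.5, 14.5 and 9.76 CPM in the Smyd3 ASO tumours in the same order, against 13.4, 5.62 and 6.61 CPM in the controls. All 5 Smyd3 ASO tumours exceeded controls 2 and 3, and 4 of the 5 lay below control 1. The log2 fold change of 0.41 had an interval of −0.24 to 1.07. Without control 1 it was 0.89 with an FDR of 0.228 in the edgeR quasi-likelihood test, and without control 2 it was 0.20, so the size of this difference rested on single controls. Reads of Suv39h2 may in part come from Dclre1c, which overlaps it on the other strand, since the labels name a stranded kit but not whether counting used the strand.

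The partners of the G9a and GLP complex overlapped between the arms. Ehmt1 (chromosome 2, 24789928 to 24919614, minus strand) had 83.0, 74.4, 85.7, 93.7 and 86.1 CPM in responder 1, responder 3, the tumour without a mark, non-responder 1 and non-responder 2, against 112, 80.3 and 95.2 CPM in controls 1, 2 and 3. Control 1 was the highest of the 8. Its log2 fold change was −0.18 (interval −0.46 to 0.10), and −0.05 without control 1. Ehmt2 (chromosome 17, 34898469 to 34914052, plus strand) stood at 169, 152, 164, 141 and 183 CPM in the Smyd3 ASO tumours in the same order, against 167, 202 and 172 CPM in the controls, with a log2 fold change of −0.16 (interval −0.41 to 0.10). Non-responder 1 was lowest and control 2 highest.

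Of the HP1 readers, Cbx3 and Cbx1 were the least variable of the 10 genes. Cbx3 (chromosome 6, 51470360 to 51483704, plus strand) stood at 202, 188, 192, 177 and 183 CPM in responder 1, responder 3, the tumour without a mark, non-responder 1 and non-responder 2, against 196, 181 and 181 CPM in controls 1, 2 and 3. The 8 values spanned 1.14-fold, and the log2 fold change was 0.015 (interval −0.18 to 0.21), with the other sign without responder 1 or without control 3. Cbx3 was the only member with fractional counts, and of its 8 pseudogene rows the largest, Cbx3-ps6, held 25.1 to 81.8 counts beside 3845 to 5181 for Cbx3. Cbx1 (chromosome 11, 96789127 to 96808640, plus strand) ran from 80.5 to 88.5 CPM in Smyd3 ASO tumours and from 74.5 to 86.1 CPM in control ASO tumours, with control 1 the lowest of all. Its log2 fold change was 0.042 (interval −0.15 to 0.24), and −0.024 without control 1. Cbx5 (chromosome 15, 103191544 to 103239816, minus strand) had 154, 131, 188, 185 and 140 CPM in the Smyd3 ASO tumours in that order, against 133, 184 and 160 CPM in the controls. It differed more between tumours of an arm than between the arms, with 159 ± 25.9 CPM (SD, n = 5) in Smyd3 ASO tumours, 159 ± 25.8 CPM (SD, n = 3) in control ASO tumours and a log2 fold change of 0.0015 (interval −0.36 to 0.36), whose sign changed with the normalisation and with 4 of the 8 left-out libraries. Over all 8 tumours the coefficient of variation was 4.55% for Cbx3 and 5.52% for Cbx1, with a median of 12.01% for the 10 genes and 15.3% for the 11870 tested genes with a mean of 5 CPM or more.

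Balances between paralogs were also compared, as log2 ratios within each tumour, which do not depend on library scaling. None of 5 ratios differed between the arms beyond the spread between tumours. Suv39h2/Suv39h1 differed most, at −2.06 ± 0.20 in Smyd3 ASO tumours (SD, n = 5) and −2.39 ± 0.53 in control ASO tumours (SD, n = 3), with an exact permutation p of 0.214, two-sided, and 0.982 adjusted over the 5 ratios. Without control 1 the difference was 0.64 instead of 0.34, with p = 0.0476 (exact permutation test, the smallest p these tumours allow), and without control 2 it was 0.13. The other ratios, Kmt5c/Kmt5b, Ehmt2/Ehmt1, Cbx5/Cbx3 and Cbx1/Cbx3, differed by −0.061, 0.015, −0.015 and 0.030 between the arms on the log2 scale, with exact permutation p from 0.679 to 0.982.

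**Figure D2:**
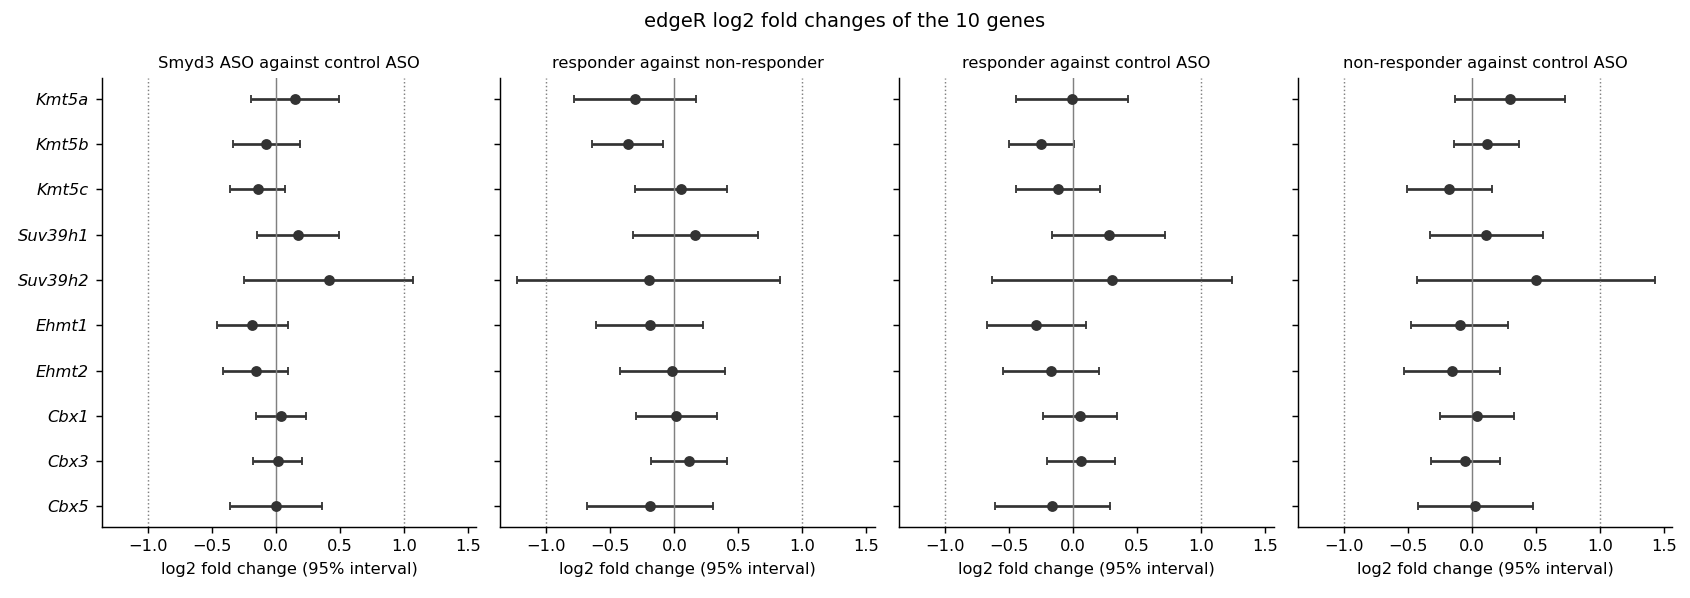
Log2 fold changes of the 10 genes (points) with 95% intervals from the edgeR quasi-likelihood fits (lines), 1 panel per comparison; dotted lines mark 2-fold. In Smyd3 ASO against control ASO every interval except that of Suv39h2 lies inside the dotted lines; Kmt5b in responder against non-responder is the one interval that does not include 0.

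The second comparison set the 2 responders against the 2 non-responders. Kmt5b was lower in the responders, at 43.3 CPM on average against 55.8 CPM in the non-responders (n = 2 each), a log2 fold change of −0.37 (SE 0.12, interval −0.64 to −0.09). It was the single member with an unadjusted p below 0.05 (0.0175), where 8.49% of all genes had one, and it missed the threshold with an FDR of 0.539 (edgeR quasi-likelihood test). Over the 14 alternatives that were run the log2 fold change ranged from −0.38 to −0.33. As the 2 pairs did not overlap, leaving out 1 tumour could hardly reverse the sign, so the constant direction adds no support. Ehmt1 was also lower in both responders than in both non-responders, at 83.0 and 74.4 CPM against 93.7 and 86.1 CPM, and Cbx3 was higher in both, at 202 and 188 CPM against 177 and 183 CPM. The other 7 members overlapped. Of all genes 39.2% did not overlap between these 2 pairs (20.3% higher and 18.9% lower in responders), so 3 of 10 is near that share. By FDR 0 of 10 members were called by edgeR, DESeq2 or limma voom, while over all genes edgeR called 0.0%, DESeq2 225 genes and limma voom 0, with edgeR FDR of the members from 0.539 to 0.987. The same tumours differed in summed skeletal muscle markers (2696 to 12795 CPM in responders, 728 to 1134 CPM in non-responders), in basal keratinocyte markers (20647 to 24071 CPM against 28375 to 37960 CPM), in terminal keratinocyte markers (342 to 368 CPM against 667 to 1331 CPM), and in T cell (79.8 to 165 CPM against 32.8 to 67.7 CPM) and B cell markers (295 to 502 CPM against 26.6 to 233 CPM). Summed hair follicle markers were also lower in responders (28.7 to 52.2 CPM against 113 to 583 CPM). All 7 that were tested had a log2 fold change below 0. Their mean log2 CPM overlapped, at −0.012 and −1.94 in responders 1 and 3 against −0.80 and 5.58 in non-responders 1 and 2. Endothelium markers were higher in responders (321 to 369 CPM against 191 to 278 CPM). So were summed Schwann cell markers (125 to 146 CPM against 61.9 to 64.2 CPM) and adipocyte markers (66.5 to 285 CPM against 38.1 to 54.2 CPM). Of the 7 Schwann cell markers 5 had a log2 fold change above 0 and 2 below. Summed macrophage and fibroblast markers overlapped, but the mean log2 CPM of both lists was higher in both responders. It was 4.33 and 5.17 against 3.60 and 4.27 for macrophage markers, and 7.49 and 8.09 against 7.07 and 7.42 for fibroblast markers. All 7 macrophage markers had a log2 fold change above 0, and of the 8 fibroblast markers 6 lay above 0 and 2 below. No marker of these lists was at 0 in either group. The part of these cell types in the Kmt5b values was not tested.

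Each response group was then set against the controls. The 2 comparisons share the control tumours. In responders against controls Kmt5b had a log2 fold change of −0.25 (interval −0.50 to 0.01, FDR 0.320 by the edgeR quasi-likelihood test) and in non-responders against controls 0.12 (interval −0.14 to 0.37, FDR 0.776). Suv39h1 was higher in both responders than in every control, with a log2 fold change of 0.28 (interval −0.16 to 0.72, FDR 0.518 by the same test). The remaining 8 members overlapped with the controls in the responders, and 9 of 10 did so in the non-responders, where Kmt5b alone stood apart. These counts of 2 and 1 compare with 35.8% and 24.8% of all genes that did not overlap. No member was called in either comparison by edgeR, DESeq2 or limma voom, where edgeR called 1.66% of all genes in responders and 0.0% in non-responders, and DESeq2 called 1153 and 339 genes in the same order. An unadjusted p below 0.05 was found for 0 of 10 members in both, where 16.6% and 9.24% of all genes had one. Kmt5a had a log2 fold change of 0.30 (interval −0.13 to 0.73) in non-responders against controls, which was 0.0069 without non-responder 1.

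Several of these genes are known to follow the cell cycle, so each was related to a proliferation score, the mean log2 CPM of 23 genes of DNA replication and mitosis, over the 8 tumours. The score was 6.25 and 6.198 in responders 1 and 3, 6.22 in the tumour without a mark and 6.64 and 5.83 in non-responders 1 and 2, against 6.25, 5.82 and 6.00 in controls 1, 2 and 3. The arms overlapped, and the 2 non-responders held the highest and the second lowest value. In Smyd3 ASO against control ASO all 23 genes of the score had a log2 fold change above 0, with a median of 0.22 beside 0.013 over all genes. By FDR 0 passed (edgeR quasi-likelihood test, with 2 below an unadjusted p of 0.05, where 15.6% of all genes were). Suv39h1 rose with the score (Pearson r = 0.90, exact permutation p = 0.00337, adjusted over the 10 relations 0.0285; Spearman rho = 0.83, exact permutation p = 0.0154, adjusted 0.0769). The relation held without the 2 tumours farthest from the median score, non-responder 1 and control 2 (r = 0.90). Of all tested genes 1.04% had an r of this size or more in either direction.

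Ehmt2 ran against the score (r = −0.90, exact permutation p = 0.0057, adjusted 0.0285; rho = −0.76, p = 0.0368, adjusted 0.123), and 1.1% of all genes had an r of this size. Without the 2 farthest tumours r was −0.70 (exact permutation p = 0.144), so this relation rests in part on them. Suv39h2 missed the threshold after adjustment (r = 0.79, exact permutation p = 0.0172, adjusted 0.0575; rho = 0.83, p = 0.0154, adjusted 0.0769), with r = 0.58 without those tumours. Kmt5a had r = 0.64 (exact permutation p = 0.0908, adjusted 0.227; rho = 0.33, p = 0.428, adjusted 0.626). The other 6 members had r between −0.28 and 0.27 with exact permutation p from 0.51 to 0.777. Without the 2 farthest tumours Kmt5b had r = −0.85 (exact permutation p = 0.0264) and Cbx3 r = 0.82 (exact permutation p = 0.0431), values that the full set of tumours does not show.

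**Figure D3:**
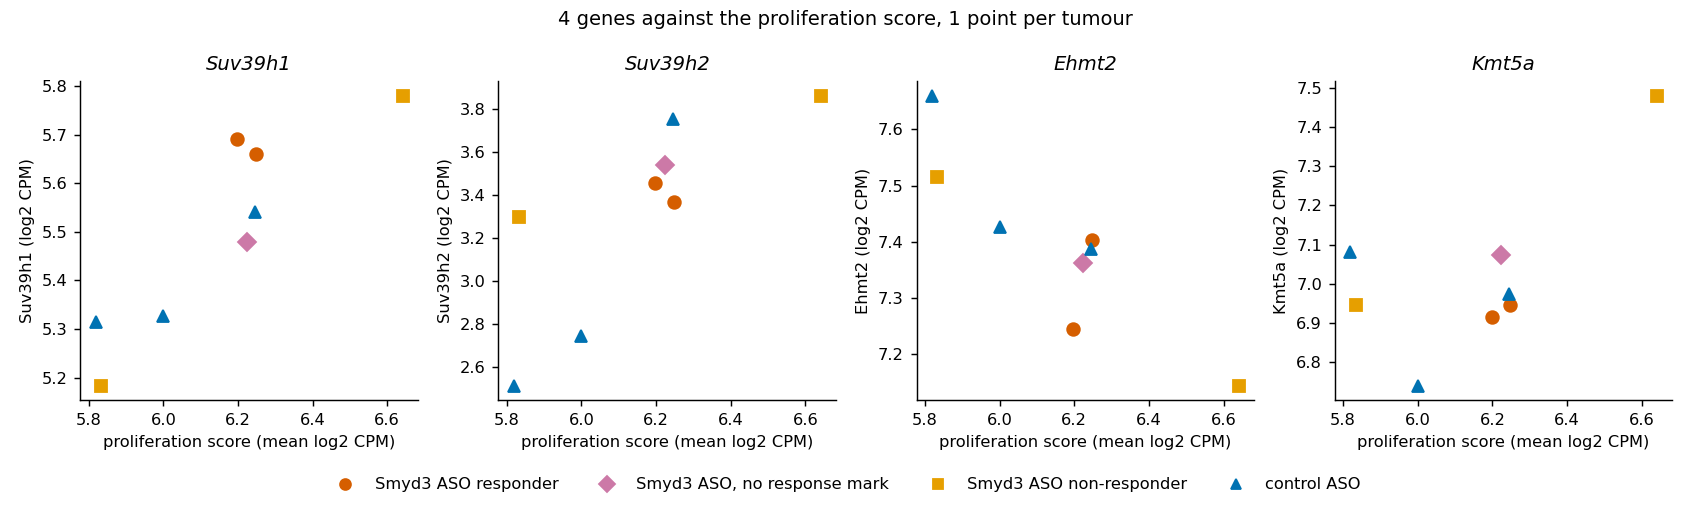
Log2 CPM of Suv39h1, Suv39h2, Ehmt2 and Kmt5a (vertical axes) against the proliferation score (horizontal axis, mean log2 CPM of 23 genes), 1 point per tumour. Suv39h1 climbs along the score and Ehmt2 declines; non-responder 1, at a score of 6.64, is at the right edge of each panel.

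Of the 10 genes 3 have a protein-coding neighbour that starts within 1 kb on the opposite strand, an arrangement in which both genes lie beside 1 shared promoter region. Cbx5 starts 616 bases from Hnrnpa1 and Cbx3 466 bases from Hnrnpa2b1, both neighbours encoding abundant RNA-binding proteins of the spliceosome-associated hnRNP family, and Ehmt2 starts 204 bases from C2, a complement component. Cbx5 moved with Hnrnpa1 over the 8 tumours (r = 0.84, exact permutation p = 0.00754, adjusted over the 3 relations 0.0226; rho = 0.83, p = 0.0154, adjusted 0.0461; r = 0.79 without the 2 tumours with the most distant Hnrnpa1 values). Of all tested genes 0.775% had an r with Cbx5 of this size or more. The relations with neighbouring genes were chosen after values were seen, so these p-values are not those of a test planned in advance. Hnrnpa1 stood at 813, 745, 832, 1010 and 744 CPM in responder 1, responder 3, the tumour without a mark, non-responder 1 and non-responder 2, against 640, 959 and 761 CPM in controls 1, 2 and 3. Control 1 was the lowest and non-responder 1 the highest.

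The other neighbours did not pass. Cbx3 with Hnrnpa2b1 gave r = 0.58 (exact permutation p = 0.133, adjusted 0.200; rho = 0.48, p = 0.243, adjusted 0.327), and r = 0.45 without the 2 farthest tumours. Ehmt2 with C2 gave r = 0.43 (exact permutation p = 0.293, adjusted 0.293; rho = 0.40, p = 0.327, adjusted 0.327), and r = 0.84 without responder 3 and non-responder 1. None of the 3 neighbours passed in Smyd3 ASO against control ASO, where Hnrnpa1, Hnrnpa2b1 and C2 had log2 fold changes of 0.08, 0.16 and −0.20 (FDR 0.862, 0.503 and 0.848 by the edgeR quasi-likelihood test).

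**Figure D4:**
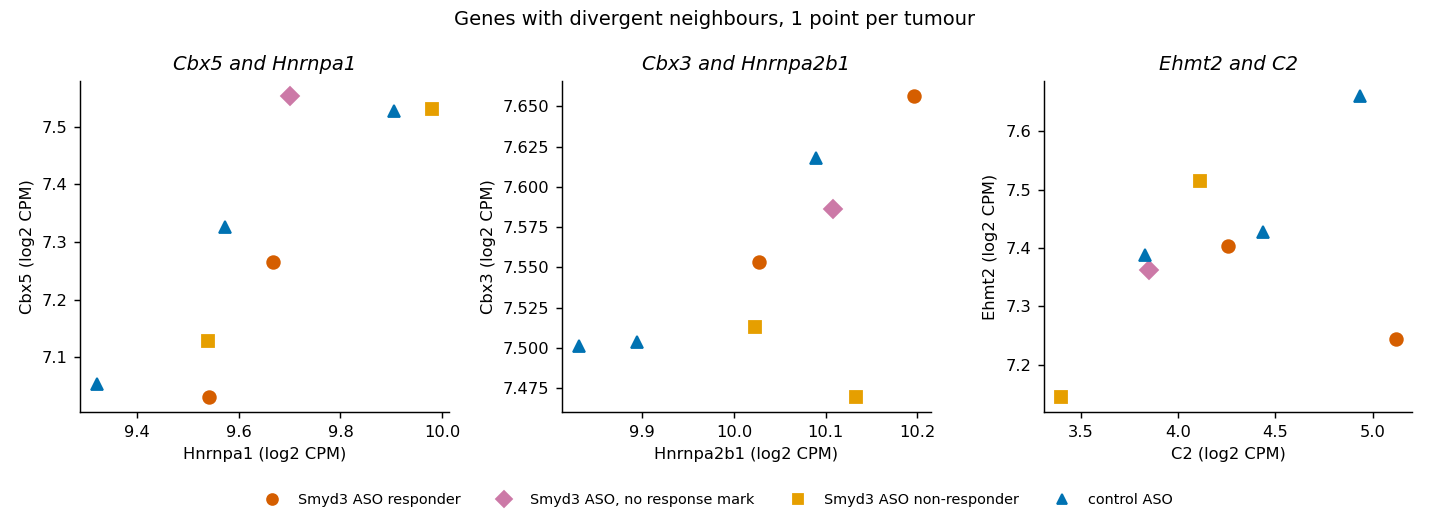
Log2 CPM of Cbx5, Cbx3 and Ehmt2 (vertical axes) against the gene that starts head to head with each (horizontal axes), 1 point per tumour. The points of Cbx5 and Hnrnpa1 lie along a rising line (r = 0.84), whereas those of Ehmt2 and C2 scatter, with responder 3 at the lower right.

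For each gene the most similar patterns over the 8 tumours were listed by Pearson r of log2 CPM among 13544 genes with an average log2 CPM of 0 or more. With so many candidates and 8 tumours, high values are found for every gene, and the first 3 of each list had r from 0.90 to 0.99. The closest were Tmem54 for Kmt5a (0.98), Mblac2 for Kmt5b (0.96), Gorasp1 for Kmt5c (0.94), Dynlrb1 for Suv39h1 (0.97) and Mmadhc for Suv39h2 (0.98). For the others they were Inafm2 for Ehmt1 (0.99), Slc39a14 for Ehmt2 (0.98), Exo5 for Cbx1 (0.97), Cop1 for Cbx3 (0.95) and Nsmce2 for Cbx5 (0.96). No neighbour described above was among them.

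The enzymes that remove H3K9 methylation lay on 1 side of 0 between the arms. All 10 H3K9 demethylase genes had a log2 fold change below 0 in Smyd3 ASO against control ASO, with a median of −0.22 beside 0.013 over all genes. By FDR 0 of 10 passed (edgeR quasi-likelihood test, with 4 below an unadjusted p of 0.05, where 15.6% of all genes were). Of the 10, 4 were lower in every Smyd3 ASO tumour than in every control, where 5.14% of all genes were. Kdm4b, which removes the higher H3K9 methylation states, had 46.6, 41.0, 45.3, 61.3 and 53.3 CPM in responder 1, responder 3, the tumour without a mark, non-responder 1 and non-responder 2, against 82.6, 86.4 and 66.6 CPM in controls 1, 2 and 3. Its log2 fold change was −0.67 (SE 0.15, FDR 0.0999 by the edgeR quasi-likelihood test). Kdm3a, which removes the lower states, had 131, 95.4, 119, 118 and 130 CPM in the Smyd3 ASO tumours in that order, against 192, 185 and 154 CPM in the controls, with a log2 fold change of −0.58 (SE 0.13, FDR 0.0999 by the same test). DESeq2 called both lower, with adjusted p of 0.0042 and 0.0025, and edgeR called Kdm4b without non-responder 1 (−0.75, FDR 0.0370). It also called Kdm4b in the 6 numbered libraries alone, which leave out both non-responders (−0.83, FDR 0.0332). Over all genes DESeq2 called 1053 here, and edgeR called 259 without non-responder 1 and 286 in the 6 numbered libraries.

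**Figure D5:**
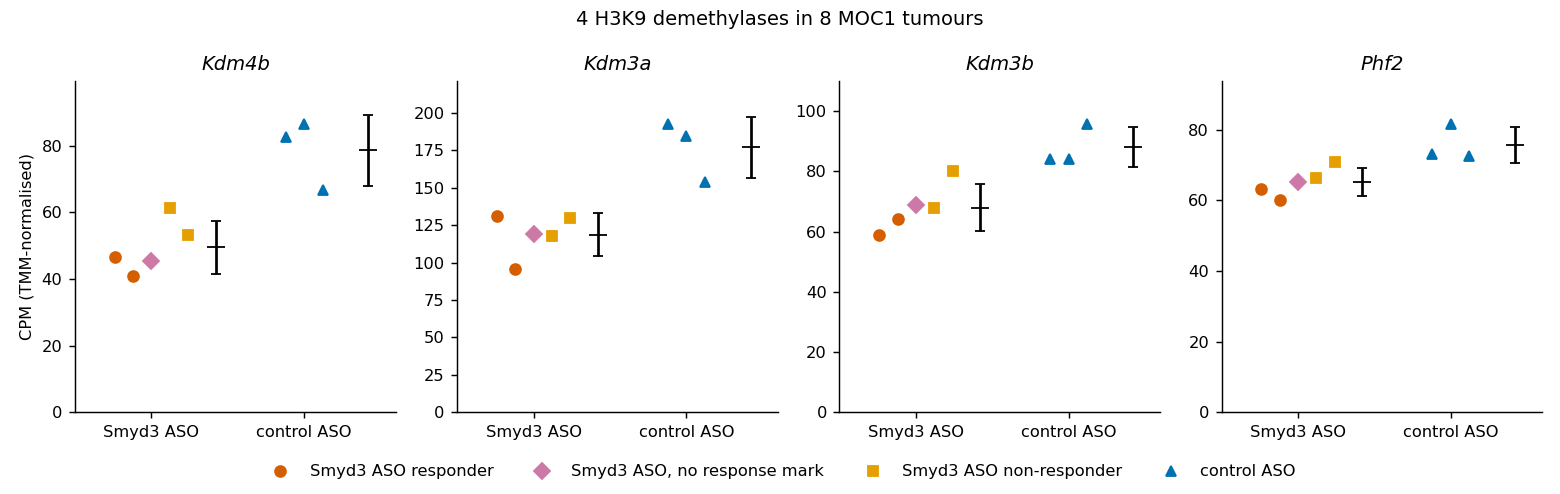
TMM-normalised CPM of Kdm4b, Kdm3a, Kdm3b and Phf2, 1 panel per gene with its own axis from 0; points are tumours (Smyd3 ASO left, control ASO right), and bars give the mean and SD of each arm (n = 5 and n = 3). In each panel all 5 Smyd3 ASO tumours lie below the 3 controls. The 4 genes shown are those of the 10 H3K9 demethylase genes whose arms did not overlap, and the others overlapped.

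The other 2 that did not overlap were Kdm3b, a relative of Kdm3a, at 67.9 ± 7.81 CPM in Smyd3 ASO tumours (SD, n = 5) and 87.9 ± 6.65 CPM in control ASO tumours (SD, n = 3), and Phf2, at 65.1 ± 3.97 and 75.7 ± 5.05 CPM in the same order. Their log2 fold changes were −0.37 and −0.22 with FDR of 0.178 and 0.281 (edgeR quasi-likelihood test). All 10 demethylase genes were below 0 in responders against controls (median −0.33). In non-responders against controls 7 were below 0 and 3 above (median −0.11). In responders against controls Kdm4b had a log2 fold change of −0.84 (FDR 0.0544 by the same test) and in non-responders against controls −0.46 (FDR 0.464), comparisons that share the controls. In responders against controls Kdm4b was called by edgeR without the count filter (−0.85, FDR 0.0176) and by DESeq2 (−0.85, adjusted p 0.00073), and DESeq2 also called Kdm3a (−0.65, adjusted p 0.0299) and Kdm3b (−0.52, adjusted p 0.0238). Over all genes edgeR without the count filter called 499 in this comparison and DESeq2 1153. The test of responders against non-responders for Kdm4b gave −0.39 (SE 0.17, FDR 0.595). Skeletal muscle and fibroblast markers separated the same arms by their summed levels given above, while the mean log2 CPM of the fibroblast markers overlapped. The part of these markers in the demethylase values was not tested.

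In the rest of the pathway no gene passed. Of 6 other H3K9 methyltransferases and their cofactor genes, with a median log2 fold change of −0.10 in Smyd3 ASO against control ASO, 0 passed by edgeR (0 below an unadjusted p of 0.05). Setdb1, the enzyme that silences endogenous retroviruses, had −0.09. Of 8 genes for the H4K20 demethylase Rsbn1 and for H4K20 readers, with a median of −0.01, 0 passed and 1 was below an unadjusted p of 0.05, Rsbn1 itself (−0.24, FDR 0.284 by the edgeR quasi-likelihood test). Over all genes 15.6% were below an unadjusted p of 0.05 in this comparison. Of 15 HP1 partners and assembly factors, with a median of 0.0093, 0 passed (0 below an unadjusted p of 0.05), and of 7 genes for the replication-coupled turnover of the Kmt5a protein, with a median of 0.05, again 0 passed (0 below an unadjusted p of 0.05).

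Between responders and non-responders 13 of the 15 HP1 partner genes had a log2 fold change below 0, with a median of −0.17 beside 0.013 over all genes, and 0 passed (edgeR quasi-likelihood test, with 2 below an unadjusted p of 0.05, where 8.49% of all genes were). Other lists lay below 0 in the same comparison, with all 10 H3K9 demethylases (median −0.27), all 8 H4K20 demethylase and reader genes (median −0.28), all 12 basal keratinocyte markers (median −0.66) and all 11 terminal keratinocyte markers (median −1.43). The part of the keratinocyte markers in the chromatin lists was not tested. Adnp, which encodes a homeodomain zinc finger protein that joins HP1 in a repressor complex, stood at 31.4 and 18.9 CPM in responders 1 and 3 against 98.4 and 49.1 CPM in non-responders 1 and 2, with a log2 fold change of −1.55 (SE 0.35, FDR 0.505 by the same test). DESeq2 called it, with an adjusted p of 0.0057, among 225 genes called in this comparison. Wiz, a zinc finger partner of the G9a and GLP complex, had 89.3 and 82.4 CPM in the responders against 126 and 111 CPM in the non-responders (log2 fold change −0.47, SE 0.13, FDR 0.510 by the edgeR quasi-likelihood test). Non-responder 1 was the highest of the 8 tumours for both genes.

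Germline genes that are kept silent in somatic cells by H3K9 methylation or by DNA methylation were read as a possible downstream signal. None of 10 such genes passed the filter on low counts. The highest count of any of them in 1 library was 15, for Tex101, and Asz1, Sycp1 and Mael had 0 counts in all 8 libraries. At this depth no difference in this list was detectable.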

How the data were processed

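Bulk polyA RNA sequencing of 8 tumours was analysed. A stranded mRNA kit was used, per the labels' protocols. Tools and build are known from the submitters' processing notes (STAR 2.7.0f, RSEM 1.3.0, cutadapt 1.18, bcl2fastq 2.17, mm10) without their settings. The deposited values are gene-level expected counts of the authors, unscaled, and each column was assigned through the sample descriptions. All 55450 identifiers were found in GENCODE M21, which gave coordinates and exon lengths.

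Expected counts were rounded. Genes with at least 0.424 CPM (10 counts in the median library) in 2 libraries and 15 counts in total were kept, 16911 genes with 99.93% of the counts. Counts were TMM-normalised and tested with edgeR 4.0.16 in R 4.3.3 (robust quasi-likelihood fit, two-sided, Benjamini-Hochberg FDR 0.05). Smyd3 ASO against control ASO had treatment as the only term, and the other comparisons came from a 4-group model over all 8 libraries. Log2 CPM used a prior count of 2. DESeq2 1.42.0 and limma 3.58.1 (voom) were alternatives. The steps were tested on simulated data. Intervals are those of the fit over these tumours.

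The 10 genes and the gene lists were chosen with earlier results of these data known, and the relations with neighbouring genes and the motifs were chosen after values were seen. Named were the members, Smyd3, their pseudogenes, head-to-head neighbours within 1 kb, up to 4 genes per pathway list and comparison with the smallest p, and, of the 3 genes most like each member, the first. Overlapping genes, Tex101 and the germline genes at 0 were named after their values were seen. The labels do not state that replicate numbers pair the tumours, and the main fits did not pair them.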

Additional observations from a re-analysis of the deposited data

Results flagged for a closer look

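Kmt5a was marked for a single tumour. Non-responder 1 had 178 CPM, while the other 4 Smyd3 ASO tumours had 121 to 135 CPM, a gap larger than 0.71 of the range of the arm, which is the 95% critical value of Dixon's test for 5 samples. Chance alone marks about 1 in 20 such groups, and 10 genes were looked at. The same tumour had the highest proliferation score of the 8, at 6.64.

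Kmt5b was marked because both responders lay below every control and both non-responders above every control. The difference between the 2 groups was tested in the fit over all genes and did not pass, with a log2 fold change of −0.37 and an FDR of 0.539 (edgeR quasi-likelihood test). Of all genes 39.2% did not overlap between responders and non-responders, 35.8% between responders and controls and 24.8% between non-responders and controls. The share with the joint pattern is not given here, and 10 genes were looked at.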

How the results depend on the processing

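No member was called in any of the 4 comparisons under any alternative. Of 590 alternative member fold changes 34 had the other sign, and 0 passed, with a lowest FDR of 0.228. Counts over all genes moved. For Smyd3 ASO against control ASO, where edgeR called 0, DESeq2 called 1053, the fit without a count filter 52, an equal weighting of both response groups 25 and the 6 numbered libraries 286 without and 245 with the replicate block, and leaving out 1 library gave 0 to 259 (259 without non-responder 1, 5 without control 1). For responders against non-responders DESeq2 called 225 and the unfiltered fit 7, with 0 to 21 when 1 library was left out (21 without responder 1). For responders against controls, with 280 calls, DESeq2 called 1153, limma voom 135 and the unfiltered fit 499. Leaving out 1 library gave 0 to 287, with 33 without responder 3, 169 and 185 without non-responders 1 and 2, and 0, 109 and 6 without controls 1, 2 and 3. For non-responders against controls DESeq2 called 339 and the unfiltered fit 32. The causes were not tested. Where a group kept 1 tumour, it was assumed to vary like the other groups. With the replicate block Kdm4b was called in Smyd3 ASO against control ASO (−0.82, FDR 0.0412). Same-numbered tumours did not deviate together (correlations −0.034, 0.00015 and 0.076).

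Some signs also changed. The log2 fold change of Cbx5 between the arms was −0.0034 with upper quartile factors, −0.00063 with limma voom, −0.00068 without a filter, −0.022 with the replicate block, −0.020 without it and −0.067 with equal weighting of the response groups. With upper quartile factors Ehmt2 was 0.014 in responders against non-responders and Kmt5a 0.0077 in responders against controls. The ranges over left-out libraries that crossed 0 were, for Smyd3 ASO against control ASO, Cbx1 −0.024 to 0.092, Cbx3 −0.020 to 0.054 and Cbx5 −0.11 to 0.14. For responders against non-responders they were Cbx1 −0.055 to 0.085, Cbx5 −0.38 to 0.023, Ehmt2 −0.19 to 0.18, Kmt5c −0.075 to 0.18, Suv39h1 −0.11 to 0.49 and Suv39h2 −0.46 to 0.11. For responders against controls they were Cbx1 −0.0095 to 0.11 and Kmt5a −0.11 to 0.085, and for non-responders against controls Cbx1 −0.028 to 0.11, Cbx5 −0.19 to 0.21, Ehmt1 −0.19 to 0.034, Ehmt2 −0.35 to 0.018 and Suv39h1 −0.22 to 0.38. The log2 ratios between the arms ranged over left-out libraries as Cbx1/Cbx3 −0.078 to 0.085, Cbx5/Cbx3 −0.18 to 0.12, Ehmt2/Ehmt1 −0.16 to 0.22, Kmt5c/Kmt5b −0.14 to 0.020 and Suv39h2/Suv39h1 0.13 to 0.64. The Smyd3 difference between the arms ranged from −1.02 to −0.76, with exact permutation p from 0.0571 to 0.143. Without the 2 tumours farthest from the median score, the relation with the proliferation score was r = −0.85 for Kmt5b, 0.58 for Suv39h2, −0.70 for Ehmt2, −0.031 for Cbx1 and 0.82 for Cbx3.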
